A study of Mus musculus with 16 samples.

Results

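Paneth cells sit at the base of the small intestinal crypts and release granules into the lumen. Beside the alpha-defensins, these cells make enzymes, lectins, pentraxins and other products, and 9 genes for such products were followed here in the terminal ileum: *Lyz1*, *Mmp7*, *Ang4*, *Itln1*, *Pla2g2a*, *Mptx1*, *Mptx2*, *Habp2* and *Nupr1*. They were chosen by name, as products of this cell type other than defensins, and make up 9 of the 23299 genes in the deposited table, through 17 of its 59258 transcripts. All 9 passed the filter on low values and were among the 19042 genes tested.

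The study asked how the taste receptor subunit TAS1R3 bears on the response of the gut to a Western diet (WD). Groups were ND-fed and WD-fed C57BL/6 mice, each either *Tas1r3*-/- or wild-type (*Tas1r3*+/+), with males and females in every group by the labels. For 10 weeks, WD-fed mice received pellets with 60% fat and drank a 30% sucrose solution, and ND-fed mice received the matching normal pellets and plain water. The knockout is a germline allele backcrossed to C57BL/6, so every cell of the body lacks the receptor, and the wild-type mice were littermates. RNA came from whole pieces of ileum. In such bulk samples, fewer cells of a type and less RNA per cell cannot be told apart.

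The 9 genes fall into 4 roles. *Lyz1* encodes the lysozyme of Paneth cells, which cuts bacterial peptidoglycan, *Pla2g2a* a secreted phospholipase that attacks bacterial membranes, and *Ang4* a microbicidal ribonuclease of the angiogenin family. *Itln1* encodes intelectin-1, a lectin for microbial sugars, and *Mptx1* and *Mptx2* are mucosal pentraxins, a family of pattern-binding proteins. *Mmp7* encodes matrilysin, the protease that activates pro-alpha-defensins in mice, and *Habp2* encodes a hyaluronan-binding serine protease of the blood. *Nupr1* encodes a small nuclear protein induced by cell stress and is the only member that is not secreted.

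On GRCm38, 3 of these genes lie on chromosome 1. They are *Itln1* (171518122 to 171535294, minus strand), *Mptx2* (173274382 to 173277777, minus strand) and *Mptx1* (174330518 to 174332873, plus strand). *Lyz1* (chromosome 10, 117287797 to 117292868) is 5.48 kb from its paralog *Lyz2*, which myeloid cells express. *Mmp7* is on chromosome 9 (7692090 to 7699585), *Ang4* on chromosome 14 (51763878 to 51773590), *Nupr1* on chromosome 7 (126623249 to 126630861) and *Habp2* on chromosome 19 (56287137 to 56320822). *Pla2g2a* (chromosome 4, 138831857 to 138835186) is annotated as a polymorphic pseudogene, since some inbred strains, C57BL/6 among them, carry a frameshift in it, and it lies 17.0 Mb from *Tas1r3* on the same chromosome.

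The pentraxin pair is shown in sequence because its members have similar transcripts and differed in their pattern across the libraries. The *Mptx1* and *Mptx2* transcripts were identical at 736 of 800 aligned positions (92.0%). The 250 bases before each start site (RefSeq, GRCm38.p6) were identical at 202 of 272 aligned positions (74.3%), whereas the other 27 pairs among the 8 members with a promoter entry gave 40.8% to 51.7%. Capitals mark runs of at least 12 bases that both promoters hold, 102 bases in all (40.8%). *Mptx1* is read from chr1:174330268-174330517 (plus strand) and *Mptx2* from chr1:173277757-173278006 (minus strand).
Mptx1: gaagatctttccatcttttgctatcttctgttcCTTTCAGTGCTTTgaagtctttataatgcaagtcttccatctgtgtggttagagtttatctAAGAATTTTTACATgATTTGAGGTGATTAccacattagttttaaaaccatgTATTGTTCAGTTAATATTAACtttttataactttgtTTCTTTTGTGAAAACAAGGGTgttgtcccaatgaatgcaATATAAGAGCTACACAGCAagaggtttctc
Mptx2: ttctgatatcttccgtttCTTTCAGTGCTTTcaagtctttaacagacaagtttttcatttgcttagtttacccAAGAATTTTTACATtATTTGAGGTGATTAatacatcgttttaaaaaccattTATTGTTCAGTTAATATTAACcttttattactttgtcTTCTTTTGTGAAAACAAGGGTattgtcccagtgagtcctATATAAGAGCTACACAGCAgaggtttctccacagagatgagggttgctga

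Short motifs were searched on both strands of these 250 bases, in the 8 members with an entry and in 32851 promoters. The letters of the TATA box, TATAAA, were found in 12.4% of all promoters and in *Mmp7* and *Mptx1*. In *Mmp7* they were on the plus strand, from bases -123 and -26. In *Mptx1* they were on the minus strand only, from bases -198 and -82. The TCF/LEF motif was searched in 2 forms that do not overlap. CTTTGAA was found in *Mptx1* and in 4.46% of all promoters. CTTTGAT was found in 3.21% of all promoters and in none of the first entries of the 8 members. Each member was counted by its first entry. *Mmp7* has a second entry, which begins within the gene and holds CTTTGAT on the minus strand. By the gene coordinates above, the first entries of *Nupr1* and *Habp2* also lie within the gene, and that of *Mptx2* overlaps its gene in part. A SOX motif, ACAATG, was found in *Mmp7* and in 10.7% of all promoters. The E-box CAGCTG was found in *Nupr1* and in 13% of all promoters. These are letter matches only.

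Of the 16 labelled samples, 13 libraries were used. Both female columns of ND-fed *Tas1r3*-/- mice equaled fixed weighted means of the male columns for 16 of the 17 member transcripts and were left out, so that this group is 2 males. In the WD-fed *Tas1r3*-/- group, both female columns are related to each other and were averaged into 1 library. This left 4 ND-fed and 4 WD-fed *Tas1r3*+/+ libraries, 2 ND-fed and 3 WD-fed *Tas1r3*-/- libraries. The steps between low values imply 7003820 to 12384383 reads per library. These reads came to 97.7% to 109% of the total that RPKM would divide by in ND-fed *Tas1r3*+/+ libraries, and to 66.4% to 91.9% in the other libraries. In 2 libraries they exceeded that total, so the deposited values may not be RPKM in the strict sense. Members were backed by 9 (*Mptx1*) to 99839 (*Lyz1*) reads in a library. RPKM were divided by library factors of 0.696 to 1.4, and levels below are these scaled RPKM (reads per kilobase of transcript, per library size). *Tas1r3* itself was at 1.73 ± 0.25 (SD, n = 4) in ND-fed and 5.5 ± 0.98 (n = 4) in WD-fed *Tas1r3*+/+ mice, and at most 0.00526 in the *Tas1r3*-/- libraries, as labelled.

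**Figure D1:**
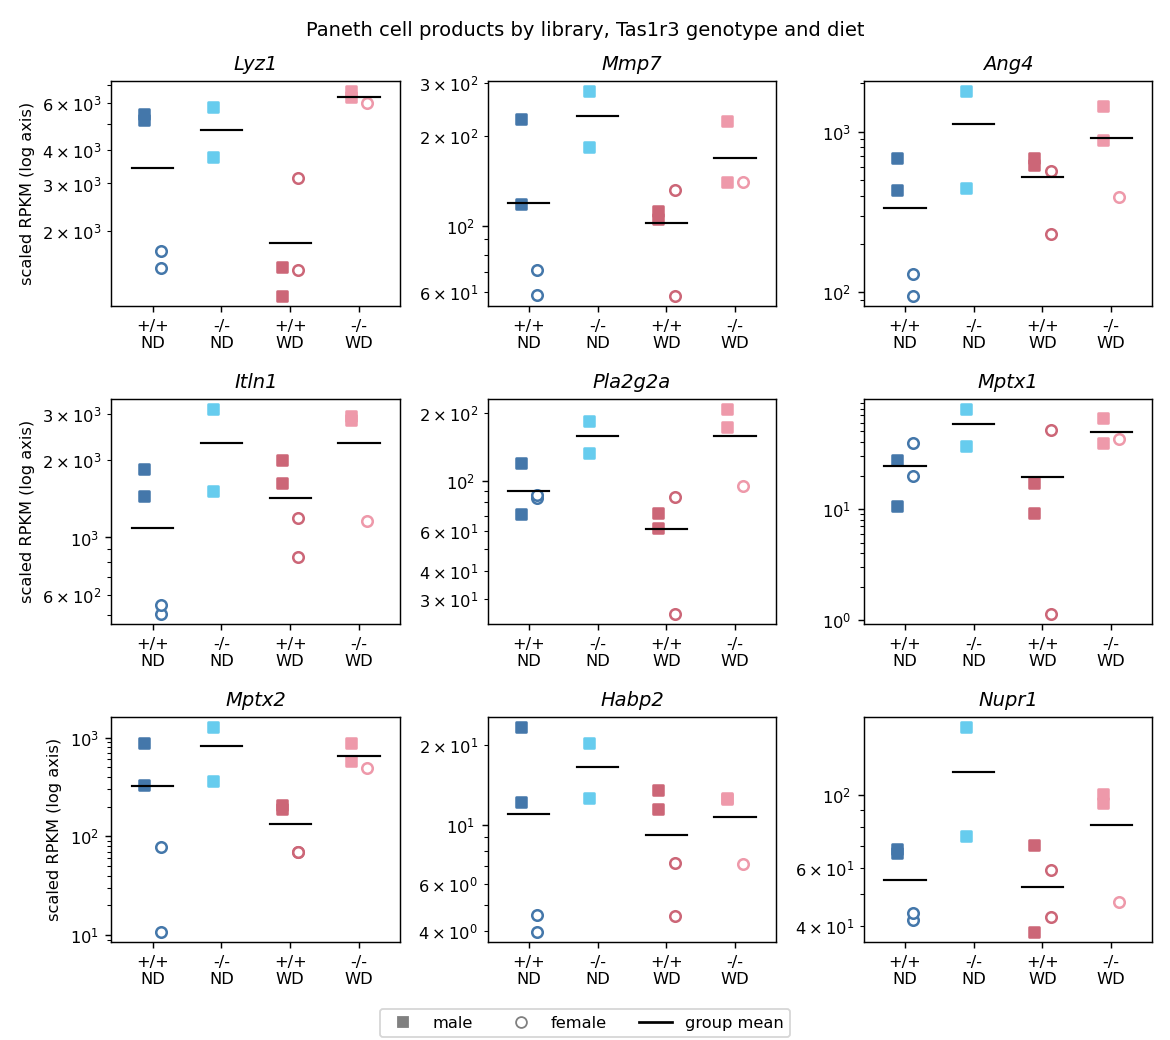
Scaled RPKM of the 9 genes in the 13 libraries, on a log axis, by *Tas1r3* genotype and diet; squares are males, open circles are females and bars are group means. The 3 WD-fed *Tas1r3*-/- libraries lie above the 4 WD-fed *Tas1r3*+/+ libraries for *Lyz1*, *Mmp7*, *Pla2g2a* and *Mptx2*, and the females lie below the males of their group for *Ang4*, *Itln1*, *Mptx2* and *Habp2*.

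The 9 genes covered a wide range of levels per length. *Lyz1* was the most abundant in each group, with group means of 1799 to 6293 scaled RPKM, followed by *Itln1* (1084 to 2321). *Ang4* (335 to 1114) and *Mptx2* (134 to 816) came next. *Mmp7* (102 to 233), *Pla2g2a* (60.9 to 158) and *Nupr1* (52.7 to 118) lay lower, and *Mptx1* (19.6 to 57.8) and *Habp2* (9.18 to 16.5) were the lowest.

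When the WD-fed groups were compared, all 9 genes had a higher mean in *Tas1r3*-/- than in *Tas1r3*+/+ mice, by 1.21-fold (*Habp2*) to 5.39-fold (*Mptx2*). None was called at an adjusted p under 0.01 with a fold change of at least 2 (limma, 0.0105% of all genes were called). Without adjustment, *Lyz1*, *Pla2g2a* and *Mptx1* had a p under 0.05, as did 2.65% of all genes. The median of the 9 log2 fold changes was 0.75, beside -0.0017 over all genes tested.

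The lysozyme gene *Lyz1* was at 1146, 1472, 1429 and 3149 scaled RPKM in the WD-fed *Tas1r3*+/+ libraries (males 1 and 2, females 1 and 2) and at 6304, 6612 and 5963 in the WD-fed *Tas1r3*-/- libraries. The lowest *Tas1r3*-/- library was thus well above the highest *Tas1r3*+/+ library. The female value is the mean of 2 related columns, which taken alone gave 4674 and 7254, both above the wild-type libraries. The coefficient of variation of the 3 knockout values was 5.16% with the mean and 17.7% and 7.18% with either column. The log2 fold change was 1.92 ± 0.53 (SE; 95% CI, 0.77 to 3.07), that is 3.79-fold, with an adjusted p of 0.9995 by limma and a two-sided exact permutation p of 0.0571 over 35 splits.

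The phospholipase gene *Pla2g2a* was at 61.6, 71.6, 25.7 and 84.6 in WD-fed *Tas1r3*+/+ mice and at 173, 207 and 94.6 in WD-fed *Tas1r3*-/- mice. Its groups did not overlap either, although the *Tas1r3*-/- female was only slightly above the highest *Tas1r3*+/+ library. The fold change was 2.68 (log2, 1.42 ± 0.38 SE), and the exact permutation p was 0.0286, the smallest that 35 splits can give. The limma adjusted p was 0.9995.

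The pentraxin *Mptx2* was at 209, 188, 69.8 and 69.0 in WD-fed *Tas1r3*+/+ mice and at 584, 890 and 492 in WD-fed *Tas1r3*-/- mice. The groups did not overlap, and the fold change was 5.39 (log2, 2.43 ± 1.13 SE; 95% CI, -0.0083 to 4.87), with an exact permutation p of 0.0286 and an adjusted p of 0.9995. Its paralog *Mptx1* was at 9.19, 17.2, 1.14 and 51.0 in WD-fed *Tas1r3*+/+ mice and at 39.5, 66.6 and 42.6 in WD-fed *Tas1r3*-/- mice, so that 1 wild-type female lay within the knockout range. The *Mptx1* fold change of 4.44 (log2, 2.15 ± 0.86 SE; exact permutation p = 0.171) came to a log2 value of 1.24 without *Tas1r3*+/+ female 1, in which *Mptx1* rested on 9 reads (95% exact Poisson interval, 4.12 to 17.1, for counting error only).

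The protease *Mmp7* was at 106, 112, 58.3 and 132 in WD-fed *Tas1r3*+/+ mice and at 140, 225 and 140 in WD-fed *Tas1r3*-/- mice. The groups did not overlap, but by a narrow margin, and the log2 fold change was 0.75 ± 0.43 (SE; exact permutation p = 0.0571). Altogether 4 of the 9 genes did not overlap between the WD-fed groups, beside 2.86% of all genes. That count was 4 or 5 without any single library other than the *Tas1r3*-/- female. It was 7 without this female, which leaves 2 libraries against 4, and smaller groups overlap less often. The share of all genes was not counted there. Between the ND-fed genotypes, also 2 libraries against 4, it was 22.2%. *Ang4* (1.64-fold), *Itln1* (1.58-fold), *Nupr1* (1.49-fold) and *Habp2* (1.21-fold) overlapped, with confidence intervals of the log2 fold change from -0.88 to 2.3, -0.51 to 1.84, -0.17 to 1.33 and -0.89 to 1.44.

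Markers of other cells were also compared by genotype in the WD-fed groups, and the summed levels given here overlapped for each list. Of 7 goblet cell markers, 3 were higher in *Tas1r3*-/- mice (median log2, -0.015), with a summed level of 4907 to 13719 scaled RPKM beside 5027 to 16730. The mucin gene *Muc2* was among them, at 815 to 1129 beside 264 to 691 without overlap, which is 2.64-fold higher (adjusted p = 0.708 by limma), and *Spink4* was 1.79-fold higher with overlap. All 5 enterocyte markers tested were lower in *Tas1r3*-/- mice (median log2, -1.05), with a summed level of 799 to 9506 scaled RPKM beside 4007 to 13028 in *Tas1r3*+/+ mice, and all 6 macrophage markers were lower (59.0 to 123 beside 95 to 168). All 5 ileum markers were lower (914 to 3745 beside 1720 to 10384). All 6 smooth muscle markers were higher (1374 to 5302 beside 1019 to 4012), none without overlap. Along with *Muc2* and *Spink4*, *Fabp2* among enterocyte genes and *Adgre1*, *Cd68* and *C1qb* among macrophage genes had an unadjusted p under 0.05, as did 2.65% of all genes. The part of these shifts in the 9 genes was not tested.

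**Figure D2:**
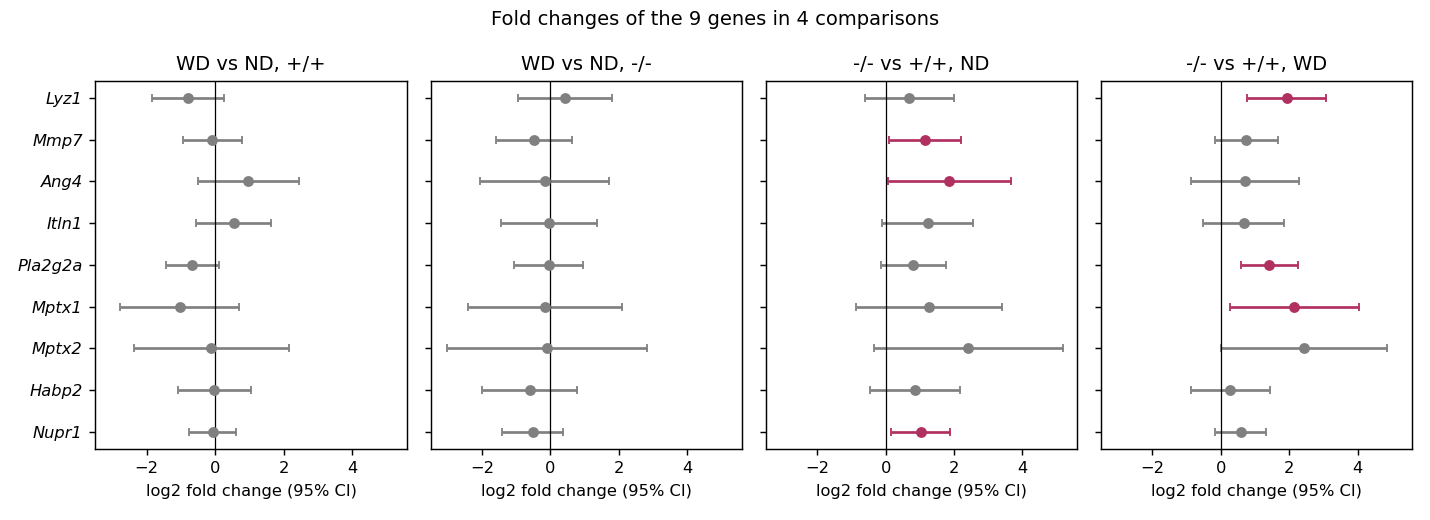
Log2 fold changes of the 9 genes (points) with 95% confidence intervals from limma (bars) in 4 comparisons; red marks intervals that leave out 0. In each -/- versus +/+ panel all 9 points lie above 0, the intervals of 3 genes leave out 0 and the others hold it. In the diet panels the points lie on both sides of 0 and every interval holds 0.

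In the ND-fed groups, the 9 genes were again all higher in *Tas1r3*-/- mice, by 1.62-fold (*Lyz1*) to 5.36-fold (*Mptx2*), with a median log2 fold change of 1.14 beside 0.031 over all genes. None was called (0% of all genes were). *Mmp7*, *Ang4* and *Nupr1* had an unadjusted p under 0.05, as did 4.55% of all genes. These groups differ in sex as well, since the 2 *Tas1r3*-/- libraries were male and 2 of the 4 *Tas1r3*+/+ libraries female. The 5 enterocyte markers tested were each lower in *Tas1r3*-/- mice without overlap (median log2, -1.17; summed level 1483 to 2702 beside 4206 to 7783). Between these groups, 22.2% of all genes did not overlap. All 5 ileum markers had a lower mean, 2 of them without overlap. No enterocyte or ileum marker had an unadjusted p under 0.05. All 6 smooth muscle markers and all 6 macrophage markers had a higher mean, none of them without overlap. Of 7 goblet markers, *Spink4* was 1.95-fold higher and *Zg16* lower (2567 to 2773 beside 4189 to 5597), both without overlap. The part of these markers in the result was not tested.

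*Nupr1* was at 66.8, 68.6, 41.8 and 43.9 in ND-fed *Tas1r3*+/+ mice and at 160 and 75.2 in ND-fed *Tas1r3*-/- mice. The groups did not overlap, and the fold change was 2.03 (log2, 1.02 ± 0.39 SE) with an exact permutation p of 0.0667, the smallest that 15 splits allow, and an adjusted p of 0.898 by limma. The log2 value was 0.45 without *Tas1r3*-/- male 1.

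*Pla2g2a* was at 120, 71.4, 83.8 and 86.4 in ND-fed *Tas1r3*+/+ mice and at 183 and 133 in ND-fed *Tas1r3*-/- mice, 1.75-fold higher without overlap (exact permutation p = 0.0667). It was the only one of the 9 whose knockout libraries lay above all wild-type libraries on both diets. The other gene without overlap here was *Nupr1*, which gives 2 of 9 genes beside 22.2% of all genes.

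*Ang4* was at 681, 435, 95 and 130 in ND-fed *Tas1r3*+/+ mice and at 1782 and 447 in ND-fed *Tas1r3*-/- mice. The second knockout male lay within the range of the wild-type males, and the log2 fold change of 1.86 ± 0.83 (SE) was 0.83 without knockout male 1 and 2.85 without knockout male 2. *Mmp7* was at 228, 119, 58.5 and 71.1 in *Tas1r3*+/+ and at 282 and 184 in *Tas1r3*-/- mice, which is 2.21-fold higher (log2, 1.14 ± 0.49 SE; exact permutation p = 0.2).

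Single libraries also set other values. Without *Tas1r3*-/- male 1, the log2 fold change of *Itln1* was 0.68 in place of 1.23 and that of *Mptx2* 1.5 in place of 2.42, and without *Tas1r3*+/+ female 1 that of *Mptx2* was 1.26. The value of *Mptx1* was 0.73 without *Tas1r3*-/- male 2 in place of 1.27.

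With sex as a covariate, 0 of the 9 genes had an unadjusted p under 0.05 between the ND-fed genotypes (3.83% of all genes), and the log2 fold changes of *Ang4*, *Mmp7* and *Nupr1* were 1.08, 0.79 and 0.76. Among males alone, *Lyz1* (-0.19) and *Habp2* (-0.067) were lower in *Tas1r3*-/- mice, and *Mptx1* (1.62) and *Pla2g2a* (0.75) had an unadjusted p under 0.05, as did 8.93% of all genes. Between the WD-fed genotypes, the same covariate left the values of *Lyz1* (1.85), *Pla2g2a* (1.34), *Mptx1* (2.15) and *Mptx2* (2.05), all with an unadjusted p under 0.05 (3.04% of all genes). In WD-fed males alone they were 2.31, 1.5, 1.98 and 1.86, and in WD-fed females alone 1.45, 0.97, 2.19 and 2.78. The 4 genes had an unadjusted p under 0.05 among males (6.81% of all genes) and 0 of the 9 had one among females (1.23%).

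The WD gave no called member in *Tas1r3*+/+ mice (0.00525% of all genes were called), and 0 of the 9 had an unadjusted p under 0.05, beside 15.5% of all genes. No member separated the 2 diets without overlap (10.6% of all genes did). *Lyz1* was at 5438, 5183, 1676 and 1454 in ND-fed *Tas1r3*+/+ mice, males first, beside the WD-fed values above. Both ND-fed males were about as high as the *Tas1r3*-/- libraries, and both ND-fed females were in the WD-fed range. The log2 fold change with WD was -0.79 ± 0.49 (SE; exact permutation p = 0.2). *Mptx1* (-1.04) and *Ang4* (0.98) had larger values in size, *Pla2g2a* (-0.67) and *Itln1* (0.54) smaller ones, and the median was -0.077. The *Mptx1* value was -0.12 without WD-fed *Tas1r3*+/+ female 1 and -1.78 without female 2. A fit of these 8 libraries for sex by diet, made after the values were seen, gave 2 of the 9 genes (*Lyz1* and *Ang4*) an unadjusted p under 0.05, beside 3.98% of all genes, and called none (0% of all genes).

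In *Tas1r3*-/- mice, the WD gave log2 fold changes between -0.60 (*Habp2*) and 0.43 (*Lyz1*), with a median of -0.16 and 0 called (0% of all genes; 5.56% had an unadjusted p under 0.05, and 0 of the 9). These groups differ in sex as well, since the 2 ND-fed libraries were male and 1 of the 3 WD-fed libraries was female. With sex as a covariate, the median was 0.11, *Habp2* was at -0.17 and *Lyz1* at 0.57. The part of sex in these values was not tested. *Lyz1* was at 5753 and 3774 in the 2 ND-fed males and did not overlap with the WD-fed libraries, and *Habp2* was at 20.3 and 12.6 with ND and at 12.6, 12.5 and 7.11 with WD, where the nearest values were almost equal. These 2 genes compare with 20.9% of all genes without overlap, and 2 libraries against 3 cannot give an exact permutation p below 0.1. For *Itln1*, *Pla2g2a*, *Mptx2* and *Ang4* the value was within 0.18 log2 units of 0, with intervals that reached at least 0.94 log2 units above 0 and 1.05 below it.

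The test of whether the genotype difference depended on diet called none of the 9 (0% of all genes; 0 of 9 had an unadjusted p under 0.05, beside 1.41%). *Lyz1* had the largest value, a log2 difference of 1.23 ± 0.80 (SE; adjusted p = 1 by limma), and *Ang4* was at -1.15 ± 1.11, a value that ran from -2.14 to -0.14 as ND-fed *Tas1r3*-/- male 2 or 1 was left out. The sexes are unbalanced in this test, since both ND-fed *Tas1r3*-/- libraries were male. Among males alone, *Lyz1* was at 2.5 ± 0.43 (SE; adjusted p = 0.894 by limma) and *Ang4* at 0.086. In that fit, 1 of the 9 genes (*Lyz1*) had an unadjusted p under 0.05, beside 1.83% of all genes.

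The sexes were compared as well, a choice made after the values were seen. In the model with genotype and diet, 8 of the 9 genes were higher in males, with a median of 0.70 log2 units beside 0.0050 over all genes, and *Mptx1* was at -0.00032. None was called (0.042% of all genes were), 5 had an unadjusted p under 0.05 (19.2% of all genes), and in 4 every male lay above every female of its own group in the 3 groups with both sexes (4.65% of all genes).

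*Itln1* was at 1833 and 1453 in ND-fed *Tas1r3*+/+ males and at 506 and 546 in females. It was at 1998 and 1629 beside 843 and 1193 in the WD-fed *Tas1r3*+/+ group, and at 2951 and 2837 beside 1155 in the WD-fed *Tas1r3*-/- group. Males were 2.40-fold higher (log2, 1.26 ± 0.24 SE; adjusted p = 0.0524 by limma). The exact permutation p was 0.00926, the smallest that 108 relabellings within groups allow.

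*Habp2* was at 23.2 and 12.2 in ND-fed *Tas1r3*+/+ males and at 3.97 and 4.61 in females, at 11.5 and 13.5 beside 4.54 and 7.18 in the WD-fed wild type, and at 12.6 and 12.5 beside 7.11 in the WD-fed knockout. The ratio was 2.44 (adjusted p = 0.0507 by limma; exact permutation p = 0.00926). *Ang4* was 2.94-fold higher in males (adjusted p = 0.0804; exact permutation p = 0.00926) and *Mptx2* 4.84-fold (adjusted p = 0.106; exact permutation p = 0.0185). In ND-fed *Tas1r3*+/+ mice, *Mptx2* reached 879 and 335 in males and 10.8 and 78.1 in females, the widest spread of any member within a group.

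*Mmp7* (1.63-fold), *Nupr1* (1.44-fold), *Pla2g2a* (1.4-fold) and *Lyz1* (1.34-fold) were less far apart, with exact permutation p of 0.0741, 0.0556, 0.148 and 0.231. The 5 stem cell markers were also higher in males (summed level 138 to 312 beside 95.5 to 150 in females), and the 5 enterocyte, 5 ileum and 5 adipocyte markers tested were all lower in males (summed levels of 799 to 7783 beside 4320 to 13028, 914 to 3921 beside 1720 to 10384, and 24.5 to 155 beside 72.2 to 167). The part of these markers in the sex difference was not tested.

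**Figure D3:**
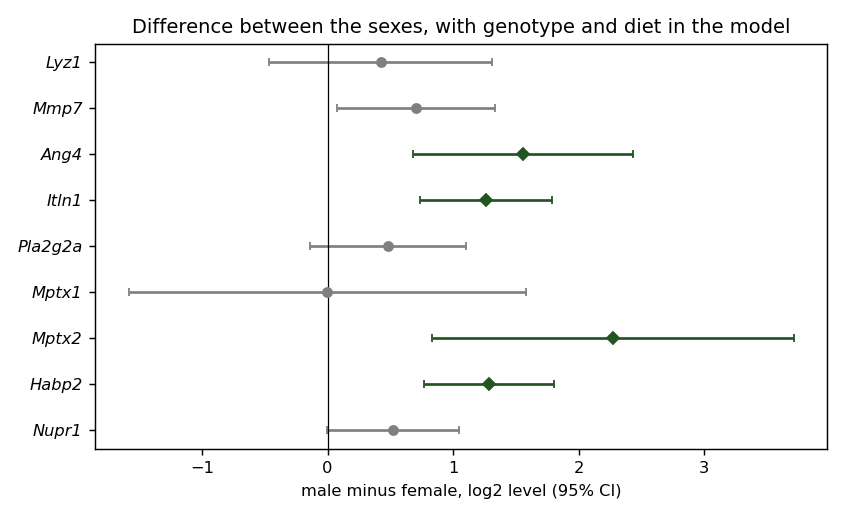
Male minus female difference in log2 level for the 9 genes, from the model with genotype, diet and sex (points), with 95% confidence intervals (bars); diamonds mark genes in which every male lay above every female of its group. *Ang4*, *Itln1*, *Mptx2* and *Habp2* are the diamonds, and *Mptx1* lies at 0.

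The 9 genes varied together across the 13 libraries. All 36 pairs had a positive Pearson r on the log2 scale, from 0.27 to 0.97 (median, 0.72), and the median was 0.62 after the group means were taken out. The points share library factors and depth, and the values are a description. *Ang4* and *Itln1* were the closest pair (r = 0.97). *Mptx1* stood apart. Its pairs had a median r of 0.34, and with its paralog *Mptx2* r was 0.28 and -0.16 within groups, whereas with *Pla2g2a* it was 0.86.

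**Figure D4:**
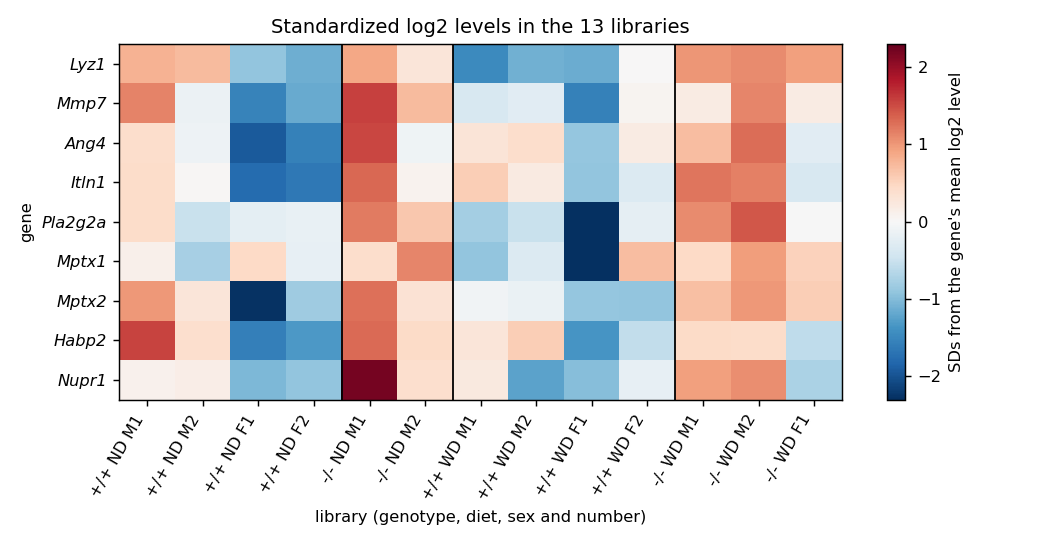
Log2 levels of the 9 genes (rows) in the 13 libraries (columns, by genotype, diet, sex and number), each in SDs from the mean of its gene. The ND-fed *Tas1r3*-/- male 1 column and the 2 WD-fed *Tas1r3*-/- male columns are red almost throughout, the ND-fed *Tas1r3*+/+ females and WD-fed *Tas1r3*+/+ female 1 are blue for most genes, and the *Mptx1* row departs from this pattern.

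Averaged over the 9 genes in SD units, ND-fed *Tas1r3*-/- male 1 was the highest library (1.30), followed by WD-fed *Tas1r3*-/- males 2 (1.06) and 1 (0.75). WD-fed *Tas1r3*+/+ female 1 (-1.41) and ND-fed *Tas1r3*+/+ females 1 (-1.20) and 2 (-0.99) were the lowest. The genes outside the group whose pattern over the 13 libraries was most like this average were *Defa34* (r = 0.97), *Defa17* (0.96), *Defa31* (0.96), *Gm16136* (0.95) and *Defa41* (0.95). The first 3 and the last are alpha-defensins, and *Gm16136* was at a mean of 1.72 scaled RPKM. Without the 2 libraries farthest from the median, these r were 0.92 to 0.95.

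Singly, *Defa26* was the most like *Lyz1* (r = 0.95), *Pla2g2f*, another secreted phospholipase, the most like *Pla2g2a* (0.94), and the colipase gene *Clps* the most like *Nupr1* (0.91). The pancreatic lipase relative *Pnliprp2* was the most like *Ang4* (0.92), *Tent5c* the most like *Itln1* (0.94), *Tmprss2* the most like *Habp2* (0.93), *Rps29* the most like *Mmp7* (0.96) and *Gm16136* the most like *Mptx2* (0.92). *Rpl12-ps2* was the most like *Mptx1* (0.88), and this r was 0.69 without the 2 farthest libraries.

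*Lyz1*, *Mmp7*, *Ang4*, *Itln1*, *Mptx1* and *Mptx2* were each quantified through 1 transcript. *Pla2g2a* had 3 transcripts, of which Pla2g2a-204 held 66.3% to 89.0% of the gene's RPKM. *Nupr1* had 4, with Nupr1-201 at 54.3% to 83.6%. *Habp2* had 4, and the share of Habp2-201 ran from 4.82% to 86.3%, with 106 to 551 reads of the gene per library. Windows of 100 bases shared with another gene made up 2.06% of *Lyz1* (with *Lyz2*), 3.29% of *Mptx1* and 3.31% of *Mptx2* (with each other), and 0% of the transcripts of the other members.

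Of 29 listed family relatives of the 9 genes, 19 were tested, and 14 of them were higher in WD-fed *Tas1r3*-/- mice, as were 49.7% of all genes. Their median log2 fold change was 0.34, beside -0.0017 over all genes. At an unadjusted p under 0.05, 3 were higher and 1 lower, beside 2.65% of all genes, and 0 were called. The 3 were the phospholipases *Pla2g2f* (2.19-fold) and *Pla2g5* (2.66-fold) and the serine protease *Hgfac*, a relative of *Habp2*, (1.49-fold), and the metalloprotease *Mmp15* was lower (log2, -0.54). Of the 19, 1 (*Pla2g5*) did not overlap between the WD-fed groups, beside 2.86% of all genes. In the ND-fed groups, *Ang5* (3.91-fold) and *Pla2g12a* (1.74-fold) were higher in *Tas1r3*-/- mice without overlap, which gives 2 of 19 beside 22.2% of all genes. *Ang4* was 3.62-fold and *Pla2g2a* 1.75-fold higher there. The myeloid paralog *Lyz2* was at 148 to 306 scaled RPKM in WD-fed *Tas1r3*+/+ and 269 to 369 in WD-fed *Tas1r3*-/- mice, below *Lyz1* in every group.

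Of 15 listed regulators of Paneth cell fate and granules, 13 were tested. Between the WD-fed genotypes, 0 had an unadjusted p under 0.05, and their median log2 fold change was 0.29. *Spdef* (24.3 to 26.8 beside 15.6 to 21.5 scaled RPKM) and *Atg16l1* (9.61 to 11.9 beside 7.99 to 9.58) were higher in *Tas1r3*-/- mice without overlap, beside 2.86% of all genes. With the WD, *Spdef*, a factor for secretory cell maturation, was lower in *Tas1r3*+/+ mice (log2, -0.56; adjusted p = 0.192 by limma) and in *Tas1r3*-/- mice (log2, -0.42; adjusted p = 0.929), without overlap in either. *Atoh1*, the master factor of secretory fate, was lower in *Tas1r3*-/- mice (log2, -0.81; adjusted p = 0.897), also without overlap. With the WD, *Xbp1* (109 to 125 beside 94.5 to 97.5) and *Lrrk2* (0.58 to 1.24 beside 0.40 to 0.44) were higher in *Tas1r3*-/- mice without overlap. Thus 2 of the 13 were higher and 2 lower, beside 20.9% of all genes without overlap. Between the ND-fed genotypes, *Rab27a* (4.39 to 6.80 beside 6.86 to 9.27) and *Xbp1* (94.5 to 97.5 beside 99.7 to 147) were lower in *Tas1r3*-/- mice without overlap (22.2% of all genes). Between the sexes, *Sox9*, which Paneth cells need to form, was 1.80-fold higher in males (adjusted p = 0.0279 by limma), as were *Wnt3* (1.64-fold) and *Ephb3* (1.46-fold), with every male above every female of its group in all 3. *Dll4* was lower in males (log2, -0.92; adjusted p = 0.0534).

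The alpha-defensins, the main granule peptides, give the nearest comparison. All 24 that were listed and tested had a higher mean in *Tas1r3*-/- mice on either diet. The list does not hold every alpha-defensin, since *Defa31*, named above, is not on it. The median log2 fold change of the 24 was 1.51 with WD and 1.42 with ND, beside 0.75 and 1.14 for the 9 other products. With WD, 24 of 24 listed defensins had an unadjusted p under 0.05, beside 3 of the 9 and 2.65% of all genes. None of either list was called. Some defensins had nearly equal levels, so the 24 may not be separate results. *Defa36* and *Defa37*, for instance, had means of 960 and 1020 in WD-fed *Tas1r3*+/+ and 2897 and 2788 in WD-fed *Tas1r3*-/- mice. The difference between the 2 lists was not tested.

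The deposited *Mptx1* and *Lyz1* values have limits of their own. In ND-fed *Tas1r3*-/- mice, the *Mptx1* values of the 2 female columns (55.5 and 65.7 RPKM) both imply a male 2 value of 116.398 RPKM by the weights that hold for the other members, 20.0 above the deposited 96.398 RPKM. The implied value corresponds to 736 reads, a whole number, and the deposited value to 609.54 reads. In all, 10 of the 13 *Mptx1* values were whole numbers of reads within 0.02, and the others were those of ND-fed *Tas1r3*-/- male 2, WD-fed *Tas1r3*+/+ female 2 (390.11 reads) and WD-fed *Tas1r3*-/- male 1 (285.80 reads). With the implied value, the log2 fold change between the ND-fed genotypes was 1.41 in place of 1.27. The *Mptx1* value of WD-fed *Tas1r3*-/- male 1 has 8 digits, where 6 is the usual most. For *Lyz1*, 1 of the WD-fed *Tas1r3*-/- female columns holds a value of 7 digits, and the mean of the columns was used. The *Lyz1* values of WD-fed *Tas1r3*+/+ libraries came to 15767.6, 23392.3, 17781.1 and 38057.8 reads. Those of WD-fed *Tas1r3*-/- males came to 72148 and 99838.9. All ND-fed *Lyz1* values used were whole numbers of reads at 1 decimal (26368 to 84089). The reason was not tested.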

How the data were processed

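RNA of the terminal ileum was selected for mRNA, depleted of rRNA and sequenced on the Ion Proton. The authors used STAR within Partek Flow on GRCm38 with Ensembl transcripts, and the deposited values are taken as RPKM, although the library total is not stated and 2 libraries hold more reads than RPKM would allow. Here, transcript RPKM were summed per gene and libraries scaled (trimmed mean of log ratios, trims of 30% and 5%). Genes were tested if at least 2 of 13 libraries reached an RPKM of 1. Log2 values (pseudocount 0.5, which understates changes of low genes) entered limma 3.58.1 (R 4.3.3; trended variances, Benjamini-Hochberg) with all 4 groups in 1 model, and single genes a two-sided exact permutation test. Other steps ran in Python 3.11.15 with numpy 2.4.6, scipy 1.17.1 and pandas 2.3.3. The fit was tested on simulated data. Reads were inferred from the step between low values. Coordinates are from GENCODE M21. The labels number samples by sex and replicate. If these are not separate mice, p-values measure only the spread between samples, which may be technical. Members and lists were chosen with earlier results of these data known. Named genes are the members, *Tas1r3*, listed genes with an unadjusted p under 0.05 or without overlap, and the most similar genes.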

Additional observations from a re-analysis of the deposited data

Results flagged for a closer look

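*Ang4* in WD-fed *Tas1r3*+/+ female 1 was at 229.5 scaled RPKM, far below the other 3 libraries of that group, which were at 569 to 681. The gap to the nearest library was 0.835 of the group's range on the log2 scale, above Dixon's 95% critical value of 0.829 for 4 samples. In all, 18 groups of 4 libraries were examined, and chance alone is taken to give about 1 such result in 20.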

How the results depend on the processing

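In all, 31 alternative settings were run, 31 of them for each of the comparisons with WD-fed *Tas1r3*+/+ mice, 30 for the other 2 pairs of groups and 29 for the interaction, and 1 of them without *Lyz1* and *Mptx1*. No member was called where it was fitted. The median log2 fold change of the members ran from 0.50 to 1.22 between the WD-fed genotypes, from 0.47 to 1.45 between the ND-fed genotypes, from -0.53 to 0.40 for diet in *Tas1r3*+/+ mice, from -0.78 to 0.22 for diet in *Tas1r3*-/- mice and from -0.89 to 0.27 for the interaction. Without scaling, the median of all genes for diet in *Tas1r3*+/+ mice was -0.38, and *Lyz1* (-1.25; adjusted p = 0.0436) and *Pla2g2a* (-1.12; adjusted p = 0.0336 by limma) passed 0.05 there but not 0.01. Over all genes, the calls for diet in *Tas1r3*+/+ mice numbered 1 in the report and 539 without scaling, 33 with all 16 columns, 11 at an adjusted p under 0.05 with no minimum fold, 10 by the highest transcript, 4 with sex as a covariate, 3 with the replicate block and 0 in either sex alone. Between the WD-fed genotypes they numbered 2 and, in the same order up to the covariate, 4, 6, 5, 1 and 3, and 0 in either sex alone or without transcripts of more than 6 digits. For diet in *Tas1r3*-/- mice they numbered 0 and 17 with all 16 columns. Every other setting gave 0 to 3 calls in each comparison. Replicate numbers were not taken to pair the libraries: 7 of 16 same-numbered pairs had a correlation of deviations over 0.1 (range, -0.20 to 0.57). Without values of differently numbered pairs beside them, these do not settle whether the libraries are paired. With the replicate block, the median was 0.73 between the WD-fed genotypes and 0.78 between the ND-fed genotypes. Groups of 2 to 4 libraries limit every comparison. The females-only fit, the sex comparison, the sex-by-diet fit the *Mptx1* alternative and the single *Lyz1* columns were chosen after the data were seen.

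Of 1349 alternative values of single genes, 69 had the opposite sign, and the cause was not tested. For diet in *Tas1r3*-/- mice, *Ang4*, *Itln1*, *Pla2g2a* and *Mptx2* were at 0.34, 0.41, 0.28 and 0.086 among males, at 0.35, 0.39, 0.11 and 0.66 with sex as a covariate, and at 0.44, 0.43, 0.22 and 0.75 with the replicate block, where *Mptx1* was at 0.072. *Itln1* was at 0.0018 with a mean RPKM of at least 5, and *Pla2g2a* at 0.020 by its highest transcript. For diet in *Tas1r3*+/+ mice, females alone gave 0.40 for *Lyz1*, 0.40 for *Mmp7*, 1.2 for *Mptx2*, 0.35 for *Habp2* and 0.19 for *Nupr1*. *Habp2* was at 0.81 by its highest transcript, 0.050 with a mean RPKM of at least 5, 0.00071 with median-of-ratios scaling and 0.0016 with only the groups compared. Between genotypes, males alone gave -0.19 for *Lyz1* and -0.067 for *Habp2* with ND, and females alone -0.12 for *Nupr1* with WD. For the interaction, males alone gave 0.23 for *Mmp7*, 0.086 for *Ang4*, 0.27 for *Itln1*, 0.078 for *Habp2* and 0.20 for *Nupr1*, and *Mptx2* was at -0.13 with 1 WD-fed *Tas1r3*-/- female column, -0.31 with all 16 columns, -0.034 with a mean RPKM of at least 5, -0.0079 with median-of-ratios scaling and -0.00095 with a pseudocount of 0.1.

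Leaving out 1 library at a time gave, for diet in *Tas1r3*+/+ mice, -0.35 to 0.30 for *Mmp7*, -1.27 to 0.82 for *Mptx2*, -0.36 to 0.44 for *Habp2* and -0.23 to 0.063 for *Nupr1*. For diet in *Tas1r3*-/- mice it gave -1.17 to 0.84 for *Ang4*, -0.55 to 0.51 for *Itln1*, -0.28 to 0.28 for *Pla2g2a*, -0.996 to 0.81 for *Mptx2*, -1.06 to 0.043 for *Nupr1* and -0.69 to 0.39 for *Mptx1*. For the interaction it gave -0.92 to 1.17 for *Mptx2*, -0.99 to 0.11 for *Nupr1* and -0.037 to 1.62 for *Mptx1*.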

Other observations

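The response of *Lyz1* to the WD in *Tas1r3*+/+ mice was not alike in the sexes. It was lower by 2.03 on the log2 scale in males and higher by 0.44 in females, where the ranges of the 2 diets overlapped. *Mptx2* (-1.45 in males, 1.23 in females) and *Ang4* (0.25 and 1.70) had the same order, whereas *Pla2g2a* (-0.47 and -0.86) and *Mptx1* (-0.44 and -1.63) had the opposite order. In a fit of the 8 *Tas1r3*+/+ libraries with sex, diet and their product, chosen after the values were seen, the difference between the sexes was -2.49 ± 0.59 (SE) for *Lyz1*, -1.47 ± 0.61 for *Ang4* and -2.70 ± 1.17 for *Mptx2*, each with an adjusted p of 0.991 by limma. Without adjustment, 2 of the 9 genes had a p under 0.05, beside 3.98% of all genes, and 0 of 18576 genes had an adjusted p under 0.05.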
